A study of Mus musculus with 4 samples.

Results

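The secreted R-spondins (Rspo1 to Rspo4), their receptors Lgr4, Lgr5 and Lgr6, and the membrane ubiquitin ligases Rnf43 and Znrf3 were followed in mouse retinal organoids, stem cell aggregates that form early retinal tissue in culture. The 9 genes were taken by symbol from a table of 55426 rows, and all 9 were found, 1 row each. They were chosen because values from this same comparison were known, so their differences are described and no p-value is given for them. All 4 libraries came from 1 line, Rx:GFP Mettl3 KO, which carries a Dox-inducible HA-METTL3, so the knockout is shared by both groups. METTL3 is the catalytic subunit of the enzyme that writes N6-methyladenosine (m6A) on RNA, and Dox is doxycycline, the drug that switches the inducible copy on. The groups were 2 untreated libraries and 2 libraries given 2 µg/ml Dox for 6 days, all harvested at day 6 of differentiation in a GMEM-based medium with 0.1 µM AGN. The sample titles use EV for the untreated and EV+Dox for the treated libraries. The labels explain neither EV nor whether the line is a single clone. Nothing in the labels says that the 2 libraries of a group came from separate cultures, so the spread between them may be technical.

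R-spondins are secreted amplifiers of Wnt signalling. RNF43 and ZNRF3 mark Frizzled receptors and LRP6 for removal from the cell surface. An R-spondin bound to an LGR receptor engages these ligases and clears them, so that more Wnt receptor stays at the surface. In the embryonic forebrain R-spondin genes are known from the dorsal midline, a source of Wnt ligands, while early eye tissue forms where Wnt/β-catenin signalling is held low.

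Untreated organoids held high levels of R-spondin transcripts and organoids given Dox low ones, while Lgr4 stood higher with Dox. Rspo2, Rspo3 and Rspo1 were 14.7-, 13.3- and 11.7-fold lower with Dox as ratios of mean FPKM (fragments scaled to transcript length and library depth). Lgr4 was 4.12-fold higher and Lgr5 2.21-fold higher, from low levels. Znrf3 and Rnf43 overlapped between the groups. Of the 9 genes, 6 had groups that did not overlap, 3 lower and 3 higher with Dox. This held for 42.2% of the 27532 genes above 0 in any library, and nothing is read from the comparison, since the genes were chosen on it. A log2 fold change of at least 1 in size was reached by 4 of the 9, against 2.24% of those 27532 genes. Nothing is read from this either, for the same reason. Only 13931 of the 27532 averaged at least 1 FPKM, and on the log2(FPKM + 1) scale lower genes seldom reach that size.

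**Figure D1:**
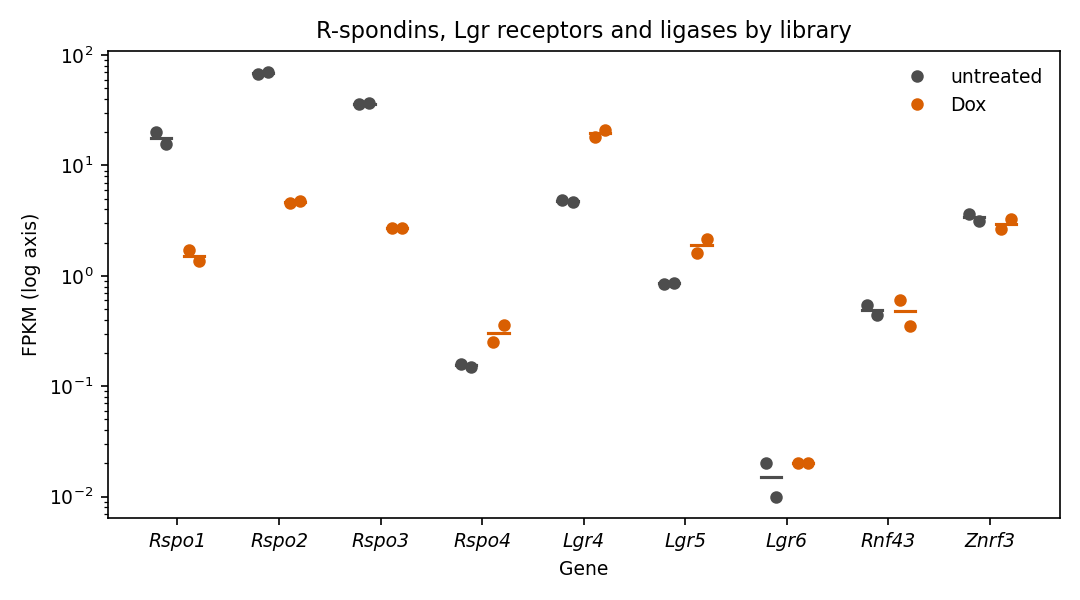
FPKM of each gene (log axis) in the 2 untreated and the 2 Dox libraries, with points for libraries and short lines for group means. Rspo1, Rspo2 and Rspo3 lie lower with Dox, Lgr4 and Lgr5 higher, and the points of Rnf43 and Znrf3 overlap.

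Rspo2 (ENSMUSG00000051920, GRCm38 chr15:43020794-43170826, minus strand) was the most abundant R-spondin in every library. It encodes a ligand known for its part in limb, lung and nervous system development. Its values were 67.66 and 70.34 FPKM without Dox and 4.59 and 4.77 FPKM with Dox. Both Dox libraries lay far under both untreated ones, and the libraries of a group nearly coincided. The means were 69.0 ± 1.90 and 4.68 ± 0.127 FPKM (SD, n = 2 each). On the log2(FPKM + 1) scale the difference was -3.62 (SE 0.0740), the 8th lowest among the 13931 genes averaging at least 1 FPKM. Each SE given here and below comes from the limma fit described further down, which borrows variance across genes. It is therefore not the spread of a gene's own libraries alone.

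Rspo3 (ENSMUSG00000019880, chr10:29452416-29535867, minus strand), a ligand needed for placental and vascular development, had the same pattern at a lower level. Its values were 35.79 and 36.75 FPKM without Dox and 2.72 and 2.73 FPKM with Dox. The Dox libraries agreed to the rounding of the table and did not approach the untreated ones. The log2 fold change was -3.32 (SE 0.0815), the 15th lowest. Exons of Rspo3 overlap those of Gm48159 on the opposite strand, which was listed at no more than 0.29 FPKM in any library.

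Rspo1 (ENSMUSG00000028871, chr4:124986430-125009099, plus strand), known for its part in ovary determination, stood at 20.03 and 15.56 FPKM untreated and at 1.70 and 1.35 FPKM with Dox. The groups did not overlap. The log2 fold change was -2.89 (SE 0.152), the 26th lowest. The 250 bases before the annotated start of Rspo1 are shown because it is the R-spondin with both a large difference and an entry in the RefSeq promoter table (GRCm38.p6), together with those of Lgr4, the gene with the opposite difference. Both run 5′ to 3′ on the plus strand, at chr4:124986180-124986429 and chr2:109917397-109917646, and capitals mark CG dinucleotides.
Rspo1: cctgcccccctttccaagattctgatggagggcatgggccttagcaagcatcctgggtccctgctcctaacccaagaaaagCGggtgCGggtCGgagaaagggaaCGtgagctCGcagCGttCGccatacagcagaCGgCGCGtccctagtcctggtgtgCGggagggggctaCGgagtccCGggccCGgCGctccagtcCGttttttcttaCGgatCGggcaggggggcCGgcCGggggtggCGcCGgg
Lgr4: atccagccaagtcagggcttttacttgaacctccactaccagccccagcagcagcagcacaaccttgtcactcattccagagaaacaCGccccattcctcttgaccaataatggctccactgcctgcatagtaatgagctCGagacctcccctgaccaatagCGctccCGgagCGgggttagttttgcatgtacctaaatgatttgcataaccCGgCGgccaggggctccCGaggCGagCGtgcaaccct
The Rspo1 stretch held 22 CG dinucleotides and the Lgr4 stretch 10, against a median of 6 over 32851 promoter entries of this length, and their G+C contents were 66.8% and 55.6% against a median of 52.4%. Neither held the TCF/LEF core CTTTGA or its reverse complement TCAAAG, which occurred in 13.8% of entries. Neither held the homeodomain core TAATTA, its own reverse complement, which occurred in 4.84%. These letters were also missing from the entries of Rspo4, Lgr6 and Rnf43, the only other genes among the 9 with one. Rspo2, Rspo3, Lgr5 and Znrf3 had no entry.

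Rspo4 (ENSMUSG00000032852, chr2:151842927-151874668), the R-spondin known from nail formation, was barely detected. It was listed at 0.16 and 0.15 FPKM untreated and at 0.25 and 0.36 FPKM with Dox, which corresponds to about 11 to 25 fragments per library. The Dox libraries were the higher pair, at counts where a few fragments decide the ratio. It had a mean under 1 FPKM and did not enter the test across genes.

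The 4 R-spondins together made up 123.64 and 122.8 FPKM without Dox and 9.26 and 9.21 FPKM with it, 13.3-fold less as a ratio of means. The make-up of that sum differed less than its size. Rspo2 accounted for 56.0% ± 1.84 of it untreated and 50.7% ± 1.56 with Dox (SD, n = 2 each), and Rspo3 for 29.4% ± 0.707 and 29.5% ± 0.141. The share of Rspo1 was 14.4% ± 2.47 and 16.5% ± 2.62, a gap within the spread between libraries. The ratio of Rspo2 to Rspo3 was 1.89 and 1.91 untreated and 1.69 and 1.75 with Dox, so the proportion of the pair differed far less than either level. Rspo4 held 0.126% of the untreated sum and 3.31% of the Dox sum.

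**Figure D2:**
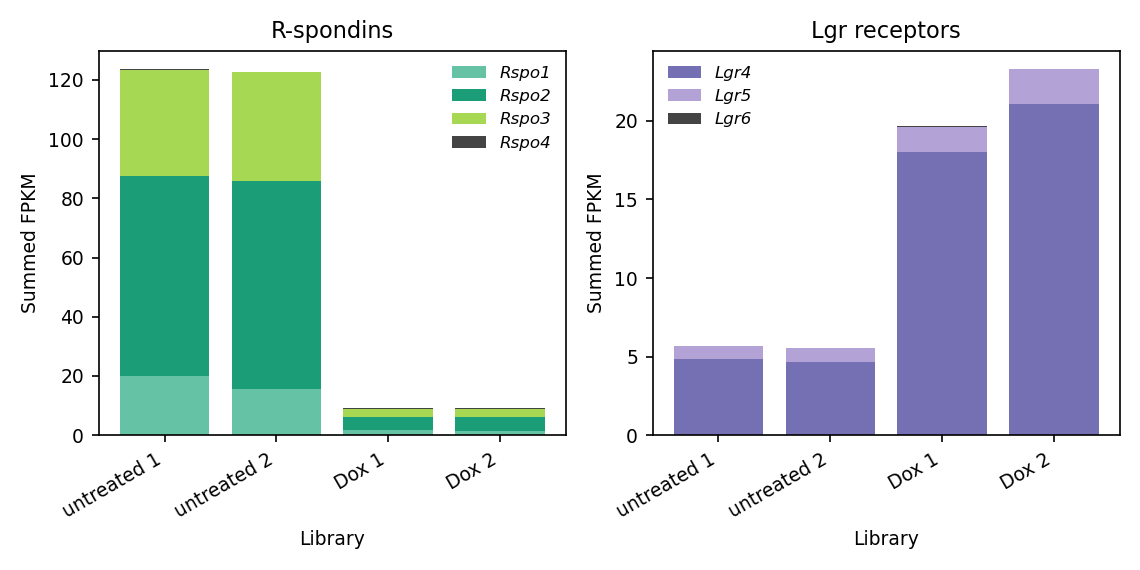
Summed FPKM of the R-spondins (left) and of the Lgr receptors (right) in each library, stacked by gene, with both axes starting at 0 and on different scales. R-spondin sums lie at 122.8 to 123.64 FPKM untreated and 9.21 to 9.26 FPKM with Dox, and Lgr sums lie at 5.54 to 5.70 FPKM untreated and 19.65 to 23.3 FPKM with Dox.

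Lgr4 (ENSMUSG00000050199, chr2:109917647-110014257, plus strand), a broadly expressed R-spondin receptor gene, was the main receptor transcript in every library. It stood at 4.83 and 4.67 FPKM untreated and at 18.03 and 21.1 FPKM with Dox. Both Dox libraries were well above both untreated ones, and they differed from each other by more than the untreated pair did. The means were 4.75 ± 0.113 and 19.6 ± 2.17 FPKM (SD, n = 2 each), and the log2 difference was 1.83 (SE 0.106), the 105th highest of the 13931 genes. Lgr4 held 84.7% and 84.3% of the Lgr sum untreated and 91.8% and 90.6% with Dox.

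Lgr5 (ENSMUSG00000020140, chr10:115450311-115587780), known as a Wnt target and stem cell marker in the gut, was low throughout. Its values were 0.85 and 0.86 FPKM untreated and 1.60 and 2.18 FPKM with Dox, about 122 and 133 fragments against 227 and 321. The Dox libraries were higher and less alike. The log2 fold change was 0.63 (SE 0.153), and the gene reached a mean of 1 FPKM only through the Dox libraries. Lgr5 took 15.2% ± 0.424 of the Lgr sum untreated and 8.75% ± 0.863 with Dox, since Lgr4 was higher by more. Lgr6 (ENSMUSG00000042793, chr1:134983301-135105276), known from hair follicle stem cells, was listed at 0.02 and 0.01 FPKM untreated and at 0.02 FPKM in both Dox libraries. These are about 2 to 4 fragments, at the floor of 3 fragments, so no fold is given.

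Znrf3 (ENSMUSG00000041961, chr11:5276324-5444847) was the main ligase transcript. It was listed at 3.67 and 3.13 FPKM untreated and at 2.66 and 3.27 FPKM with Dox. The upper Dox value lay inside the untreated range. The log2 fold change was -0.15 (SE 0.137). Rnf43 (ENSMUSG00000034177, chr11:87662722-87735539) stood at 0.54 and 0.44 FPKM untreated and at 0.61 and 0.35 FPKM with Dox. The Dox libraries enclosed the untreated ones, and the means of 0.490 ± 0.0707 and 0.480 ± 0.184 FPKM were within the spread. The log2 fold change of Rnf43 was -0.01, and leaving out single libraries moved it between -0.14 (without Dox replicate 1) and 0.11 (without Dox replicate 2).

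The balance between the families differed between the groups. R-spondin transcripts exceeded Lgr transcripts 21.7- and 22.2-fold in the untreated libraries, while the same ratio was 0.471 and 0.395 in the Dox libraries. Lgr transcripts stood at 1.35 and 1.55 times the ligase transcripts untreated and at 6.01 and 6.44 times with Dox. These ratios are of transcript levels per length and say nothing of protein.

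The order of the 9 levels was the same in both untreated libraries: Rspo2, Rspo3, Rspo1, Lgr4, Znrf3, Lgr5, Rnf43, Rspo4 and Lgr6, with no neighbours overlapping. With Dox, Lgr4 came first and Rspo2 after it, each apart from its neighbours. Rspo3 and Znrf3 then overlapped (2.72 to 2.73 against 2.66 to 3.27 FPKM), as did Lgr5 and Rspo1 (1.60 to 2.18 against 1.35 to 1.70 FPKM). Rnf43 and Rspo4 overlapped too (0.35 to 0.61 against 0.25 to 0.36 FPKM), and Lgr6 stayed last.

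**Figure D3:**
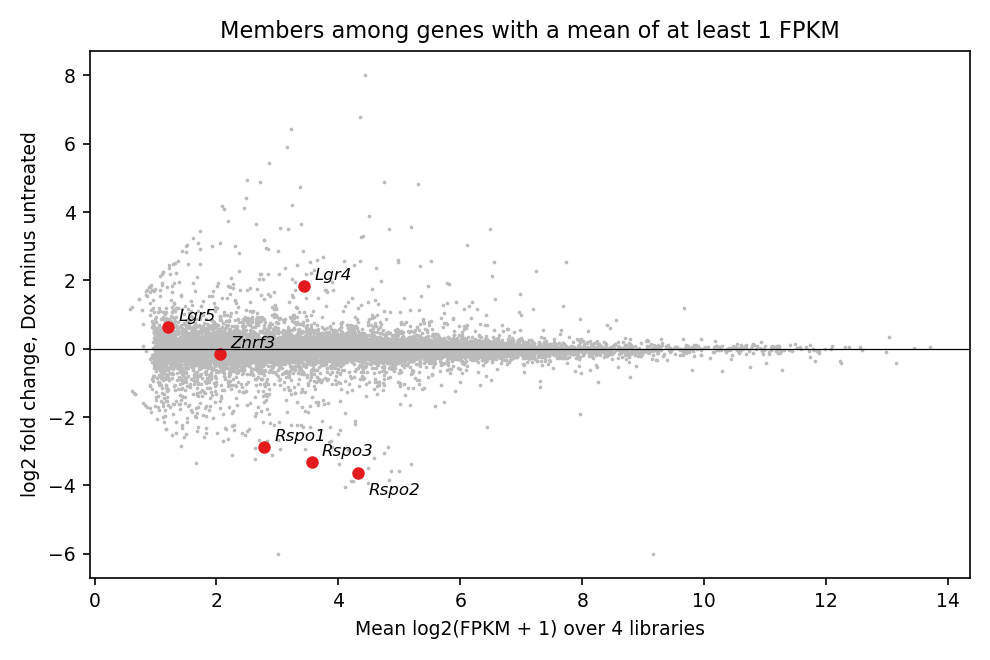
log2 fold change (Dox minus untreated, of FPKM + 1) against mean log2(FPKM + 1) over the 4 libraries for the 13931 genes averaging at least 1 FPKM (grey), with the 6 R-spondin, Lgr and ligase genes that reached that mean in red. Rspo1, Rspo2 and Rspo3 lie near the lower edge of the cloud and Znrf3 within it. Lgr4, the 105th highest, lies above most genes but well below the highest ones.

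As the study concerns m6A, the GGACT pentamer, a frequent sequence context of that mark, was counted in the longest coding transcript of each gene (GENCODE M21, given strand only). Rspo1 had 0 in 1834 bases, Rspo2 had 1 in 3338, Rspo3 had 2 in 3085 and Rspo4 had 1 in 2371. Per kilobase these are 0 to 0.648, against a median of 1.01 and quartiles of 0.535 and 1.51 over 13918 genes. Lgr4 had 9 in 5060 bases, 1.78 per kilobase, Rnf43 had 8 (1.86 per kilobase) and Znrf3 had 9 (1.43 per kilobase). Lgr5 had 5 in 4714 bases (1.06 per kilobase) and Lgr6 had 6 in 6675 (0.899 per kilobase). Both lie between the quartiles, as do Rspo3 (0.648) and Znrf3 (1.43). Of the 9 in Lgr4, 6 lie in its coding sequence, as does 1 of the 2 in Rspo3, whereas the only one in Rspo2 lies outside it. The 6 coding matches of Lgr4 are shown with 10 bases on each side, because Lgr4 held the largest number of any gene with a large difference. Capitals mark the pentamer, and the coordinates are those of its 5 bases on the plus strand of GRCm38 chromosome 2.
Lgr4 match 1, chr2:109918243-109918247: accgtcgggtGGACTgctccgggaa
Lgr4 match 2, chr2:109991153-109991157: agccattcgtGGACTgagtgctttg
Lgr4 match 3, chr2:109997642-109997646: ctgttttgatGGACTagataacctg
Lgr4 match 4, chr2:109999406-109999410: tggaaaccctGGACTtgaattataa
Lgr4 match 5, chr2:110002531-110002535: aagatgctgcGGACTctggacttat
Lgr4 match 6, chr2:110003454-110003458: tgcggactctGGACTtatcttataa
Matches 5 and 6 lie on either side of the junction of exons 11 and 12, and the bases printed around them overlap. m6A itself was not measured in these libraries, so a match is only a run of letters.

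Transcripts that mark cell types differed between the groups as well. A list of dorsal forebrain genes held Wnt3a, Wnt2b, Wnt8b, Lmx1a, Emx1, Emx2, Zic1, Msx1 and Gdf7, not all of them confined to the midline. They summed to 249 to 255 FPKM untreated and to 22.2 to 25.1 FPKM with Dox. Of the 9, 7 had a mean of at least 1 FPKM, 6 of these fell past the threshold and 0 rose, and none of the 9 was at 0 in all libraries. At an unadjusted p below 0.05 in limma 7 were lower and 0 higher. Over all 13931 genes 9.31% passed the adjusted threshold of 0.05, 4.44% higher and 4.87% lower. The share of all genes at the unadjusted p was not counted, so nothing is read from unadjusted counts here or below. All marker lists were written with earlier results of these data known, so their counts are a description. Wnt8b, Emx2 and Zic1 held most of the untreated sum, at 86.2, 77.0 and 68.9 FPKM as group means. Wnt3a and Wnt2b were too low to be tested. Wnt3a stood at 0.640 untreated and 0.200 FPKM with Dox, while Wnt2b went the other way, at 0.305 and 0.415 FPKM. Retinal progenitor markers (Rax, Six3, Six6, Lhx2 and Pax6) summed to 151 to 163 FPKM untreated and 763 to 884 FPKM with Dox. Of these, 4 of 5 rose, and Pax6 stood at 123 and 127 FPKM, while Six6 stood at 0.01 FPKM in each untreated library. Neural crest markers summed to 35.9 to 36.8 FPKM untreated and 6.31 to 7.34 FPKM with Dox, and pigment epithelium markers to 2.31 to 2.40 and 61.2 to 61.9 FPKM. All 5 neural crest markers fell, and the 3 tested of 5 pigment epithelium markers rose. Of 5 mesenchyme markers, which summed to 9.66 to 11.2 and 20.7 to 22.8 FPKM, 2 rose and 3 did not pass. Col1a2 accounted for most of the gap, at 2.19 and 12.1 FPKM as group means, while Prrx1 stood at 3.36 and 2.01 FPKM. Neuron markers summed to 130 to 133 FPKM untreated and 78.4 to 82.5 FPKM with Dox, and the 3 tested of 4 fell. Of the neural progenitor markers Sox1 and Nes fell and Sox2 rose, with sums of 185 to 199 and 172 to 197 FPKM. Of 3 endothelium markers only Kdr had a high enough mean to be tested, and it rose from 0.235 to 15.8 FPKM as group means, while Pecam1 stood at 0.580 and 0.755 FPKM and Cdh5 at 0.030 and 0.520 FPKM. Pluripotency markers summed to 19.4 to 21.1 and 15.9 to 22.7 FPKM, and 0 of 3 passed in limma (at an unadjusted p below 0.05, 1 was lower and 0 higher). The midbrain and hindbrain, surface epithelium, endoderm and mesoderm lists each summed to less than 1 FPKM in every library and had no tested gene, with Hoxb1 and Krt14 at 0 throughout. The part of any of these cell types in the R-spondin and Lgr4 differences was not tested. In bulk RNA, fewer cells of a type and less RNA per cell cannot be told apart. Some markers reached the mean of 1 FPKM only through the group where they were high, so their direction was not independent of the filter. These were Rax, Six6, Mitf, Dct and Kdr through the Dox libraries, and Lmx1a, Emx1, Gdf7, Sox10, Foxd3, Tfap2b and Elavl3 through the untreated ones.

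The genes with the profile nearest to each R-spondin over the 4 libraries were found by the Euclidean distance of log2(FPKM + 1) values, after removal of each gene's own mean. For Rspo2 they were Fabp7 (distance 0.184), Wnt7b (0.254) and Rspo3 (0.302). For Rspo3 they were Pou3f3 (0.102), Cxcr4 (0.212) and Fabp7 (0.229). For Rspo1 they were Dmrt3 (0.142), Rfx4 (0.181) and Tnfrsf19 (0.192). Those nearest to Lgr4 were Sox8 (0.0271), Chrdl1 (0.0485) and Tmtc2 (0.0596). Fabp7 encodes a fatty acid binding protein of radial glia, and Dmrt3 a transcription factor of the dorsal telencephalon. Fabp7 was at 73.08 and 75.09 FPKM untreated and at 5.18 and 6.22 FPKM with Dox. Sox8 reached only 2.95 and 3.63 FPKM with Dox, so its likeness to Lgr4 is one of differences on this scale, not of levels. Over 4 libraries such distances mostly rank genes by their difference between the groups.

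Other genes of the Wnt pathway were counted in 8 lists that hold none of the 9 genes. Their differences were tested with limma across the 13931 genes, with Benjamini-Hochberg adjustment and a threshold of 0.05. Of 78 listed genes 56 reached the mean of 1 FPKM, and 26 of these (46.4%) passed the threshold, 8 higher and 18 lower. Over all 13931 genes 9.31% passed, 4.44% higher and 4.87% lower. The median log2 fold change was -0.18 over the 56 genes and -0.0042 over all. The lists were written with earlier results of these data known, so the counts are a description. Wnt1, Wnt7a, Sp5 and Sostdc1 reached the mean of 1 FPKM only through the untreated libraries.

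**Figure D4:**
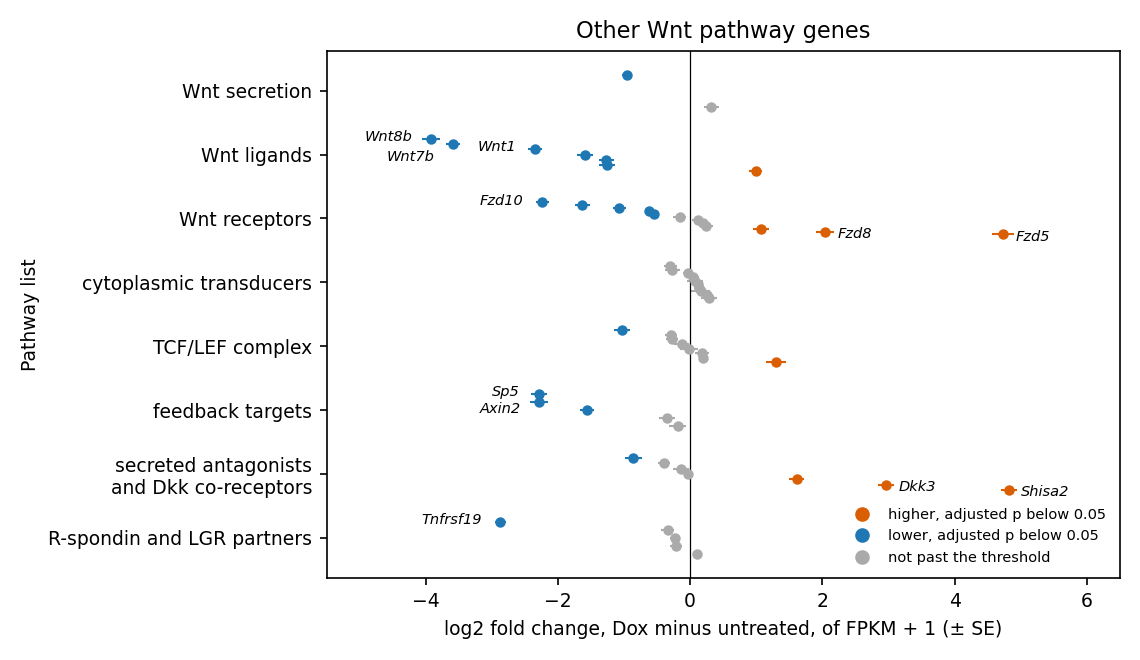
log2 fold change (Dox minus untreated, of FPKM + 1) of the 56 Wnt pathway genes averaging at least 1 FPKM, by list, with bars for 1 SE. Called Wnt ligands and feedback targets lie to the left of 0 except 1, Wnt5b, receptors and antagonists lie on both sides, and the 10 cytoplasmic transducers lie near 0.

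Of 19 Wnt ligand genes 7 were tested, and 6 fell while 1 rose. Wnt8b, a ligand of the dorsal midline, fell from 86.2 ± 1.27 to 4.82 ± 1.06 FPKM (SD, n = 2 each), with a log2 fold change of -3.92 (limma adjusted p = 0.000104). Wnt7b had a log2 fold change of -3.59 and Wnt1 of -2.35. Wnt5b, a ligand mostly known from β-catenin-independent signalling, rose from 15.7 ± 1.26 to 32.2 ± 2.67 FPKM. The other 12 ligands had means under 1 FPKM. Wls, the carrier that Wnt proteins need to leave the cell, fell from 88.2 ± 0.389 to 44.8 ± 2.14 FPKM, while Porcn, the enzyme that acylates them, did not pass (adjusted p = 0.163).

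The receptors that RNF43 and ZNRF3 act on went both ways. Of 10 Frizzled genes and the co-receptors Lrp5 and Lrp6, all 12 were tested, and 3 rose and 5 fell. Fzd5, a Frizzled gene of the early eye, rose from 1.01 ± 0.127 to 53.0 ± 12.0 FPKM (SD, n = 2 each), with a log2 fold change of 4.73 (limma adjusted p = 0.000116). Fzd8 had a log2 fold change of 2.04 and Fzd1 of 1.07. Fzd10, Fzd9 and Fzd4 had log2 fold changes of -2.24, -1.63 and -1.07. Fzd2, the most abundant on average, fell from 67.5 ± 0.898 to 43.5 ± 1.34 FPKM. Lrp6 stood at 17.6 ± 0.608 and 20.3 ± 2.11 FPKM and did not pass (adjusted p = 0.302).

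Downstream of the receptors, 0 of 10 cytoplasmic transducers passed, and 1 in each direction had an unadjusted p below 0.05 in limma. Ctnnb1, which encodes β-catenin, was listed at 454 ± 12.0 and 444 ± 16.7 FPKM (SD, n = 2 each) and did not pass (limma adjusted p = 0.833). Of 8 genes of the TCF/LEF complex, Tcf7l1, known mainly as a repressor, rose (log2 fold change 1.30) and Lef1 fell (-1.03). Pygo2, the most abundant of the list, had a log2 fold change of 0.20 and did not pass.

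Feedback targets, genes that Wnt/β-catenin signalling is known to induce, were lower where they passed. Of 5 tested, 3 fell and 0 rose, and at an unadjusted p below 0.05 in limma 4 were lower and 0 higher. Sp5 fell from 6.15 ± 0.0354 to 0.465 ± 0.0636 FPKM, and Axin2 from 31.4 ± 5.69 to 5.63 ± 0.304 FPKM (SD, n = 2 each; limma adjusted p = 0.000353 and 0.000582). Apcdd1 had a log2 fold change of -1.56. Nkd1 was at 21.8 ± 3.17 and 16.9 ± 0.983 FPKM and did not pass (adjusted p = 0.147). Lgr5, Znrf3 and Rnf43 are themselves known as targets of this kind, and their values, given above, were higher with Dox for Lgr5 and overlapped between the groups for Znrf3 and Rnf43.

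Of 15 genes listed as Wnt antagonists or Dkk co-receptors, not all of them secreted, 7 were tested, and 3 rose and 1 fell. Shisa2, whose product holds Frizzled proteins back in the endoplasmic reticulum, rose from 6.42 ± 0.898 to 209 ± 25.1 FPKM (SD, n = 2 each), with a log2 fold change of 4.82 (limma adjusted p = 6.96e-05). Dkk3 had a log2 fold change of 2.96. Sfrp2, a secreted Frizzled-like protein, rose from 71.8 ± 5.65 to 221 ± 32.1 FPKM, while Sostdc1 fell (-0.86). Among 6 partners of R-spondins and LGR receptors 5 were tested and 1 passed: Tnfrsf19, a Wnt target whose product (TROY) binds LGR5, fell from 39.5 ± 1.98 to 4.53 ± 0.233 FPKM. Bmpr1a, a BMP receptor gene whose product RSPO2 and RSPO3 can direct to ZNRF3, stood at 38.7 ± 1.15 and 41.8 ± 0.198 FPKM and did not pass (adjusted p = 0.392). Of the 26 genes named from these lists, 8 share exonic bases with a gene on the opposite strand: Wnt7b, Fzd5, Ctnnb1, Tcf7l1, Lef1, Axin2, Sfrp2 and Bmpr1a. Their values would mix both genes if counting ignored strand. Ctnnb1 also shares bases with Mir7090 on its own strand, which stranded counting would not separate. The calls of Lef1, Fzd1 and Tcf7l1 were lost without the filter (adjusted p = 0.0524, 0.0652 and 0.0661), that of Tcf7l1 also without Dox replicate 2 (adjusted p = 0.0529), and that of Sostdc1 without any one library (adjusted p = 0.0583 to 0.0812).

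For the whole series, fitted depth was 31750000 to 34650000 fragments per library, and 13813 to 13909 genes reached 1 FPKM. Mettl3 stood at 40.33 and 37.98 FPKM untreated and at 45.2 and 46.37 FPKM with Dox (log2 fold change 0.22, adjusted p = 0.122 in limma). Its gene-level value does not separate the knocked-out locus from the inducible copy and so does not check the labels. Rax, the gene behind the Rx reporter, was at 1.12 and 0.82 FPKM untreated and 201.14 and 227.98 FPKM with Dox.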

How the data were processed

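Poly(A) RNA was sequenced as paired ends. The authors deposited gene-level FPKM values, 1 column per library, not pooled and rounded to 2 decimals. The submitters' processing notes list STAR, Cuffdiff and mm10; versions, annotation release and strand setting are not given in the sources used here. Columns were matched to libraries by library name, and groups came from the treatment label.

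Values were analysed as log2(FPKM + 1). Genes averaging at least 1 FPKM entered limma 3.58.1 (R 4.3.3; eBayes with trend, prior df 3.5, two-sided, Benjamini-Hochberg, threshold 0.05, no covariate). This scale understates changes of low genes. An exact permutation test of 2 against 2 cannot go below p = 0.333. The code was tested on simulated data. Fold ratios use plain FPKM means. Depth was fitted from the steps of values below 0.5 FPKM in single-transcript genes of 450 to 1200 bases: 87.1% to 87.9% came out within 0.15 fragments of a whole number, where 30.0% would by chance. Fragments per gene assume its longest coding transcript.

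Coordinates and transcripts are from GENCODE M21 (GRCm38, the build of mm10), promoters from RefSeq, matched by symbol for 5 of the 9 genes. The 9 genes and all lists were chosen with earlier results of these data known. Named pathway genes are, per list, up to 3 called genes with the highest and 3 with the lowest fold change and the most abundant gene, and nearest profiles are the 3 nearest named genes per gene with a log2 fold change of at least 1 in size. 1 gene of the retinal progenitor list is left out of its sums and counts and is not reported here. In 12 alternatives the pseudocount, filter, scaling, trend, block or a library was changed.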

Additional observations from a re-analysis of the deposited data

How the results depend on the processing

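The signs of the log2 fold changes of Rspo1, Rspo2, Rspo3, Rspo4, Lgr4, Lgr5 and Znrf3 were the same in all 12 alternatives. Rspo2 ranged from -3.85 (pseudocount 0.1) to -2.93 (pseudocount 5), Rspo3 from -3.69 to -2.42, Rspo1 from -3.46 to -1.80, Lgr4 from 1.33 to 2.02 and Lgr5 from 0.23 to 1.04, all by pseudocount. Znrf3 ranged from -0.26 without Dox replicate 2 to -0.04 without Dox replicate 1. Testing every detected gene gave 336 calls upwards and 409 downwards in limma, and with a minimum mean of 5 FPKM, which tests fewer genes, 408 and 413, against 619 and 678. Leaving out each library in turn, where the lone library is assumed to vary like the other group, gave 265 to 332 higher and 341 to 370 lower from fewer samples. Other Wnt pathway genes called higher numbered 6 to 8 and called lower 13 to 20 across the alternatives, against 8 and 18. Ctnnb1, which had not passed, ranged from -0.073 to 0.004 when single libraries were left out, positive without Dox replicate 2. A replicate block in the model left 532 calls upwards and 602 downwards, with 8 and 18 among the Wnt pathway genes. Replicate numbers did not pair the libraries by this measure (correlation of replicate differences -0.0435 across genes). Scaling to TPM or median centring moved the median of all genes by at most 0.021. Depth limits Lgr6, Rspo4 and Rnf43, at about 2 to 79 fragments per library.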
